A study of Arabidopsis thaliana with 7 samples.

Results

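The beta-glucosidases (BGLU) and the serine carboxypeptidase-like proteins (SCPL) of Arabidopsis thaliana are 2 enzyme families, followed here in root RNA. A member was any probe set that the platform annotation pairs with 1 gene whose symbol begins with BGLU or scpl and a number, in either letter case. BGLU28 was left out, and no signal was required. The rule gave 48 genes, 19 BGLU and 29 SCPL, each read by 1 of the 22746 probe sets that are not controls. Beta-glucosidases and carboxypeptidase-like genes with another symbol, and those the annotation does not pair with a probe set of their own, are not among the members. Gene symbols are spelled as the annotation spells them, so SCPL34 and scpl35 belong to the same family.

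RNA came from roots of the wild type and of the ANR1-GR line ANGR4-12, each with and without 1 uM dexamethasone. The line carries a fusion of ANR1 and the rat glucocorticoid receptor under the 35S promoter in the C24 ecotype, and the labels call it a working overexpressor. Dexamethasone is the steroid that binds this receptor. The wild type had 2 arrays without dexamethasone and 2 with it, the line had 2 without, and the treated line had 1 array, of replicate 2. All plants were starved of nitrogen for 2 days and moved after 9 days to plates with or without dexamethasone for 1 h, and each array holds RNA pooled from 20 plants. The ecotype field of the wild type reads only "Control", the line is a single transgenic line, and the annotation pairs no probe set with ANR1, so the level of the fusion was not analysed here.

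Plant beta-glucosidases release sugars from glucosides, among them hormone conjugates, coumarins such as scopolin, lignin precursors and defence compounds, many of which are stored apart from the enzyme until a cell is damaged. Serine carboxypeptidase-like proteins share the fold of peptidases that cut amino acids from the carboxyl end of proteins. Some members of that family instead act as acyltransferases that move an acyl group from a glucose ester to another molecule, as in the synthesis of sinapate esters.

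Log2 signals correlated at 0.958 to 0.988 where a pair of arrays shared its replicate number and at 0.911 to 0.962 where it did not. The ratio of 3′ to 5′ probe signal, a measure of RNA and labelling quality, was higher for 2 of the 3 control genes in replicate 2. For GAPDH the 3 arrays of replicate 1 gave 1.05 to 1.12 and the 4 of replicate 2 gave 1.18 to 1.55, and for ubiquitin these ranges were 1.25 to 1.44 and 1.48 to 2.19. For actin the ratio was highest on the untreated line array of replicate 2, at 1.59, and on the treated wild type array of replicate 2, at 0.876, against 0.251 to 0.528 on the other 5 arrays. Of 26 marker genes of root and shoot cell types only EXPA7 and EXPA18, both root hair expansins, were paired with a probe set, and no shoot marker of 7 was, so the labelled tissue could be checked only in part. In bulk RNA, fewer cells of a type and less RNA per cell cannot be told apart.

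Most members of both families gave a low signal in these roots. Probe sets were tested where their signal, averaged over all 7 arrays, was 50 or more, and this was reached by 6 of the 19 BGLU genes (31.6%) and by 10 of the 29 SCPL genes (34.5%), against 44.8% of all probe sets. The median of the mean signals was 14.3 for BGLU and 25.3 for SCPL, against 40.4 for all probe sets. Each family held 12 members under a mean of 20, which is 63.2% of the BGLU genes and 41.4% of the SCPL genes, against 35.4% of all probe sets. Among the members that were tested, the median was 310 for BGLU and 144 for SCPL, against 131 for all tested probe sets. These family levels describe signals of different probe sets, whose brightness also depends on their probes, and were not tested.

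The brightest BGLU member was BGLU15, an enzyme that takes part in the breakdown of flavonol glycosides, with a mean signal of 779. BGLU16 at 413, BGLU46 at 312 and BGLU25 at 308 followed, and BGLU42 and BGLU40 lay near the limit at 60.9 and 51.4. BGLU46 is an enzyme that cleaves glucosides of lignin precursors, and BGLU42 releases scopoletin from scopolin in iron-starved roots. The first member under the limit was BGLU44, with a mean of 46.6. The remaining 12 BGLU genes ran from 2.96 for BGLU19 to 18.3 for BGLU24, and this group included BGLU33, a vacuolar enzyme that frees abscisic acid from its glucose ester, at 4.57.

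SCPL49, which RefSeq also lists as carboxypeptidase Y, a vacuolar peptidase, was the brightest SCPL member at a mean of 660. The signals of scpl29 and scpl48 came next, at 506 and 441. SCPL34, SCPL45, scpl26 and scpl20 lay between 136 and 177, and scpl35, scpl25 and scpl28 between 78.6 and 92.5. A further 7 SCPL genes lay between 20 and the limit, from scpl44 at 22.6 to SCPL27 at 44.2, where the BGLU family had BGLU44 alone. The dimmest SCPL gene was scpl38 at 1.06.

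**Figure D1:**
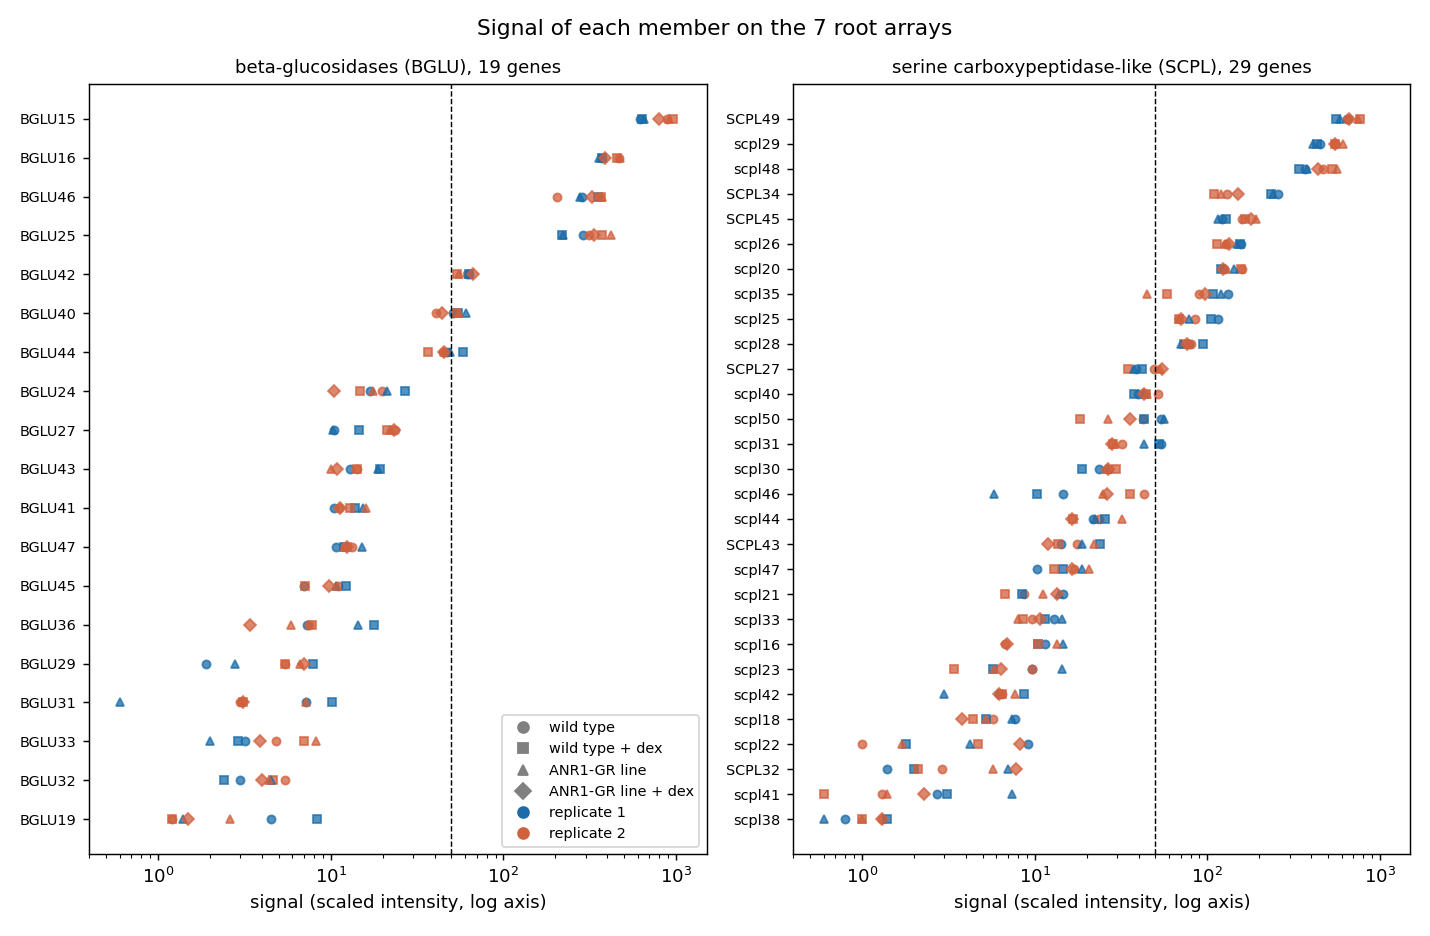
Signal of each of the 19 BGLU genes (left) and 29 SCPL genes (right) on the 7 arrays, on a log axis of scaled intensity. Each point is 1 array, its shape gives the line and treatment, its colour the replicate, and the dashed line is the mean signal of 50 from which members were tested. The members span from 1.06 to 779 in mean signal, and most lie left of the line.

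The question of whether the 2 replicates gave the same values for these enzymes was asked first, because it bears on every other comparison. Within the groups, 5 of the 16 tested members differed between the replicates at a limma adjusted p under 0.05, against 16.7% of all 10183 tested probe sets. BGLU15, scpl48 and SCPL45 were higher in replicate 2, and SCPL34 and scpl35 were lower. In the background 7.55% of probe sets were higher and 9.17% lower. By family this was 1 of 6 BGLU genes, higher, and 4 of 10 SCPL genes, 2 in each direction. The estimate uses the 3 groups that have both replicates, each array counting once.

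SCPL34 had signals of 255.9, 232.9 and 241.4 in replicate 1, in the untreated wild type, the treated wild type and the untreated line. In replicate 2 the same groups gave 129.8, 108.6 and 119.3, and the treated line gave 149.6. All replicate 1 arrays lay above all replicate 2 arrays. The log2 difference, replicate 2 minus replicate 1, was -0.94 ± 0.11 (SE, limma adjusted p = 0.00441), and it ran from -0.998 within the treated wild type to -0.90 within the untreated wild type.

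The signals of scpl35 were 130.9, 107.3 and 119.3 in replicate 1 and 89.6, 58.5 and 44.4 in replicate 2, in the same order of groups, with 97.4 in the treated line. The replicates did not overlap, and the replicate 2 arrays covered a wider range. The log2 difference was -0.79 ± 0.15 (limma adjusted p = 0.0174), running from -0.48 within the untreated wild type to -1.16 within the untreated line. The lowest scpl35 signals came from the same 2 arrays as the highest actin 3′ to 5′ ratios. With the mean log2 ratio of the 3 control genes as a term in the model, which leaves 1 residual degree of freedom, the difference of scpl35 was -0.42 and was not called. In that fit 2 members were called, BGLU15 and SCPL34, and 11.5% of all tested probe sets.

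BGLU15 had signals of 619.4, 636.5 and 653.5 in replicate 1 and 884.8, 957.8 and 912.7 in replicate 2, with 790.9 in the treated line. Every replicate 2 array was above every replicate 1 array, the treated line being the lowest of them. The log2 difference was 0.52 ± 0.10 (limma adjusted p = 0.0178), between 0.47 and 0.58 within the 3 groups.

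For scpl48 the signals were 365.2, 341.4 and 376.6 in replicate 1 and 469.2, 526.8 and 566.4 in replicate 2, with 438.0 in the treated line. Its replicates did not overlap either, and the difference was 0.51 ± 0.11 (limma adjusted p = 0.0269). SCPL45 gave 121.2, 128.2 and 114.9 in replicate 1, then 159.2, 164.1 and 191.8 in replicate 2 and 179.5 in the treated line. The difference for SCPL45, also without overlap, was 0.45 ± 0.12 and lay close to the threshold (limma adjusted p = 0.0485).

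**Figure D2:**
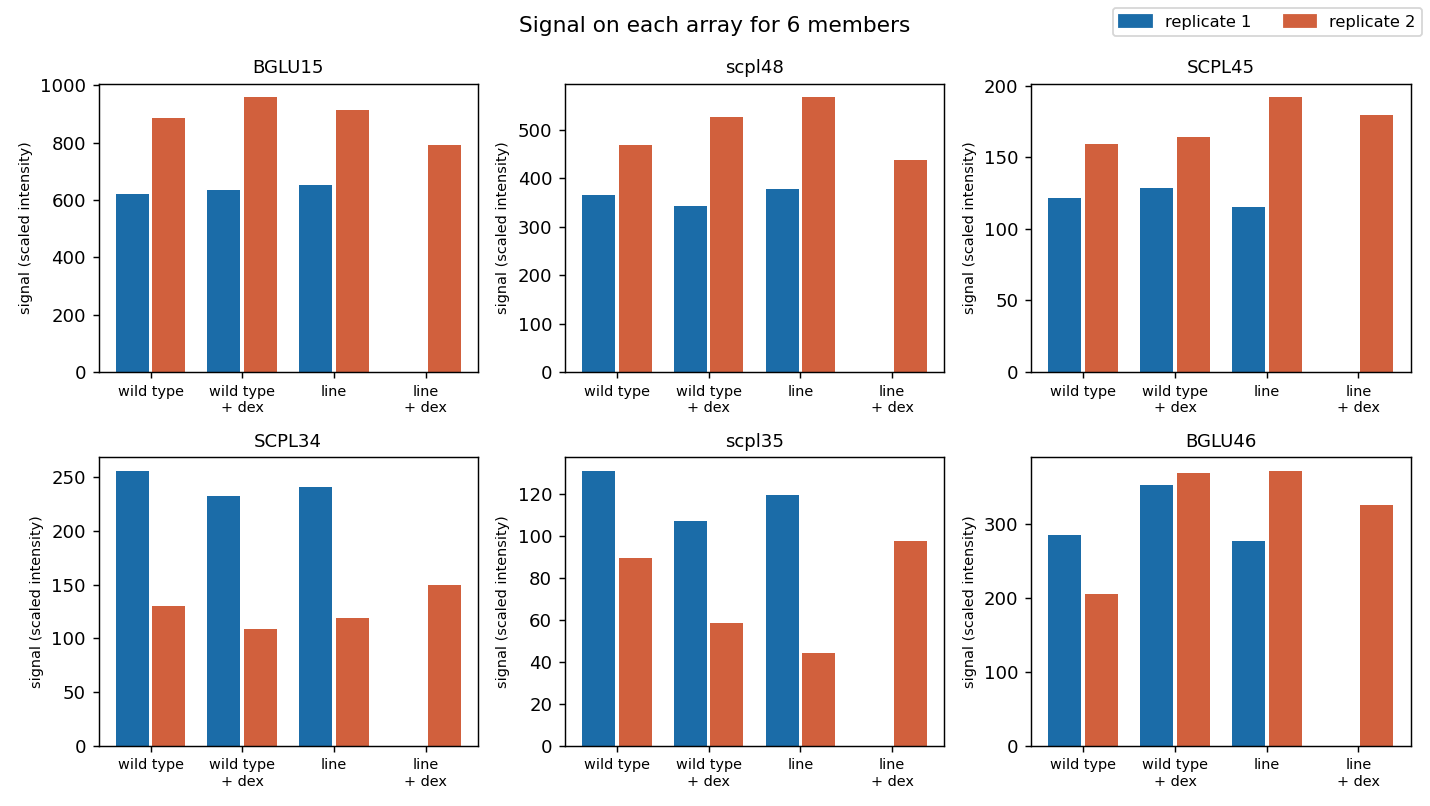
Signal (scaled intensity, axes from 0) of 6 members on each array, with replicate 1 in blue and replicate 2 in orange; the treated line has no replicate 1 array. BGLU15, scpl48 and SCPL45 are higher and SCPL34 and scpl35 lower on every replicate 2 array, while the replicates of BGLU46 overlap.

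The other 11 tested members did not pass. BGLU25 had a larger difference than BGLU15, 0.57 ± 0.16, with a limma adjusted p of 0.0525. Its signals were 287.7, 217.5 and 220.4 in replicate 1, then 312.4, 370.3 and 416.9 in replicate 2 and 333.1 in the treated line, and the wild type without dexamethasone showed the smallest step, 0.11 on the log2 scale. The signals of scpl29 were 447.9, 430.3 and 409.1 in replicate 1 and 547.2, 550.7 and 609.7 in replicate 2, with 544.7 in the treated line. Those arrays did not overlap, and the difference was 0.39 ± 0.11 (limma adjusted p = 0.0535). BGLU16, also without overlap, had 372.9, 373.9 and 356.9 in replicate 1 and 467.0, 455.9 and 475.7 in replicate 2, with 388.2 in the treated line, and a limma adjusted p of 0.0771.

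SCPL49 gave 645.4, 556.7 and 587.1 in replicate 1, then 650.4, 764.1 and 749.6 in replicate 2 and 664.9 in the treated line. All 4 replicate 2 arrays were above the 3 of replicate 1, although the untreated wild type moved by only 0.011 on the log2 scale (limma adjusted p = 0.166 over the groups). In BGLU46 the replicates crossed, at -0.44 within the untreated wild type and 0.40 within the untreated line. At an unadjusted limma p under 0.05 there were 10 of the 16 members, against 34.7% of all tested probe sets. The replicate 2 arrays lay wholly above those of replicate 1 for 7 of the 16 members and wholly below for 3, against 16.8% and 19.8% of all tested probe sets, 36.6% together.

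Leaving out 1 array, and with it the estimate of its group, changed the calls of members and of all probe sets alike. The count was 8 members without the untreated wild type (32.8% of all tested probe sets), 3 without the untreated line (BGLU15, SCPL34 and scpl35, against 8.44% to 8.53%) and 1 without the treated wild type (SCPL34, against 2.96% to 3.08%). Centring each array on its median gave 8 members, 6 higher and 2 lower, against 17.9% of all tested probe sets, and raised the share of higher calls among all calls from 45.2% to 61.6%, with the median of all tested probe sets moving from -0.020 to 0.065 on the log2 scale. The labels do not say whether a replicate number stands for 1 sowing, extraction or hybridisation, and p-values over these arrays measure only their spread.

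The signed medians of the families were small, with members moving in both directions. The median log2 difference of the tested members was 0.17 for BGLU and 0.064 for SCPL, and -0.020 for all tested probe sets. Over all members, dim ones included, it was -0.00045 for the 19 BGLU genes and -0.048 for the 29 SCPL genes. In size alone, the median was 0.34 over the 16 tested members and 0.21 over all tested probe sets. A difference under 1.2-fold was found for 31.2% of the tested members, against 59.1% of all tested probe sets. With dim ones included the contrast was smaller. The median size was then 0.18 over the 48 members and 0.15 over all probe sets, with 64.6% and 71.7% under 1.2-fold. Members of both families lay on both sides of 0, and SCPL ran from -0.94 for SCPL34 to 0.94 for scpl46.

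Among all 48 members, the replicate 2 arrays lay entirely above those of replicate 1 for 5 BGLU and 5 SCPL genes and entirely below for 1 BGLU and 7 SCPL genes. In the background this held for 24.7% of all probe sets, 10.4% above and 14.3% below. The dim SCPL gene scpl46 had signals of 14.6, 10.3 and 5.8 in replicate 1, then 43.0, 35.7 and 25.0 in replicate 2 and 26.3 in the treated line. Its arrays did not overlap, and the step was 0.91 to 0.98 on the log2 scale within all 3 groups. It was too dim for the test, but in a fit of all probe sets without a limit on signal it was 1 of 2 members called, with SCPL34, at 0.94 ± 0.11 (limma adjusted p = 0.0333), against 1.86% of all probe sets.

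BGLU27, also dim, gave 10.5, 14.6 and 10.3 in replicate 1 and 23.4, 21.3 and 21.9 in replicate 2, with 23.2 in the treated line. The dim scpl31 ran the other way, from 42.8 to 53.9 in replicate 1 and from 27.9 to 32.1 in replicate 2. Neither gene had overlapping replicates, and neither was called in the fit without a limit.

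**Figure D3:**
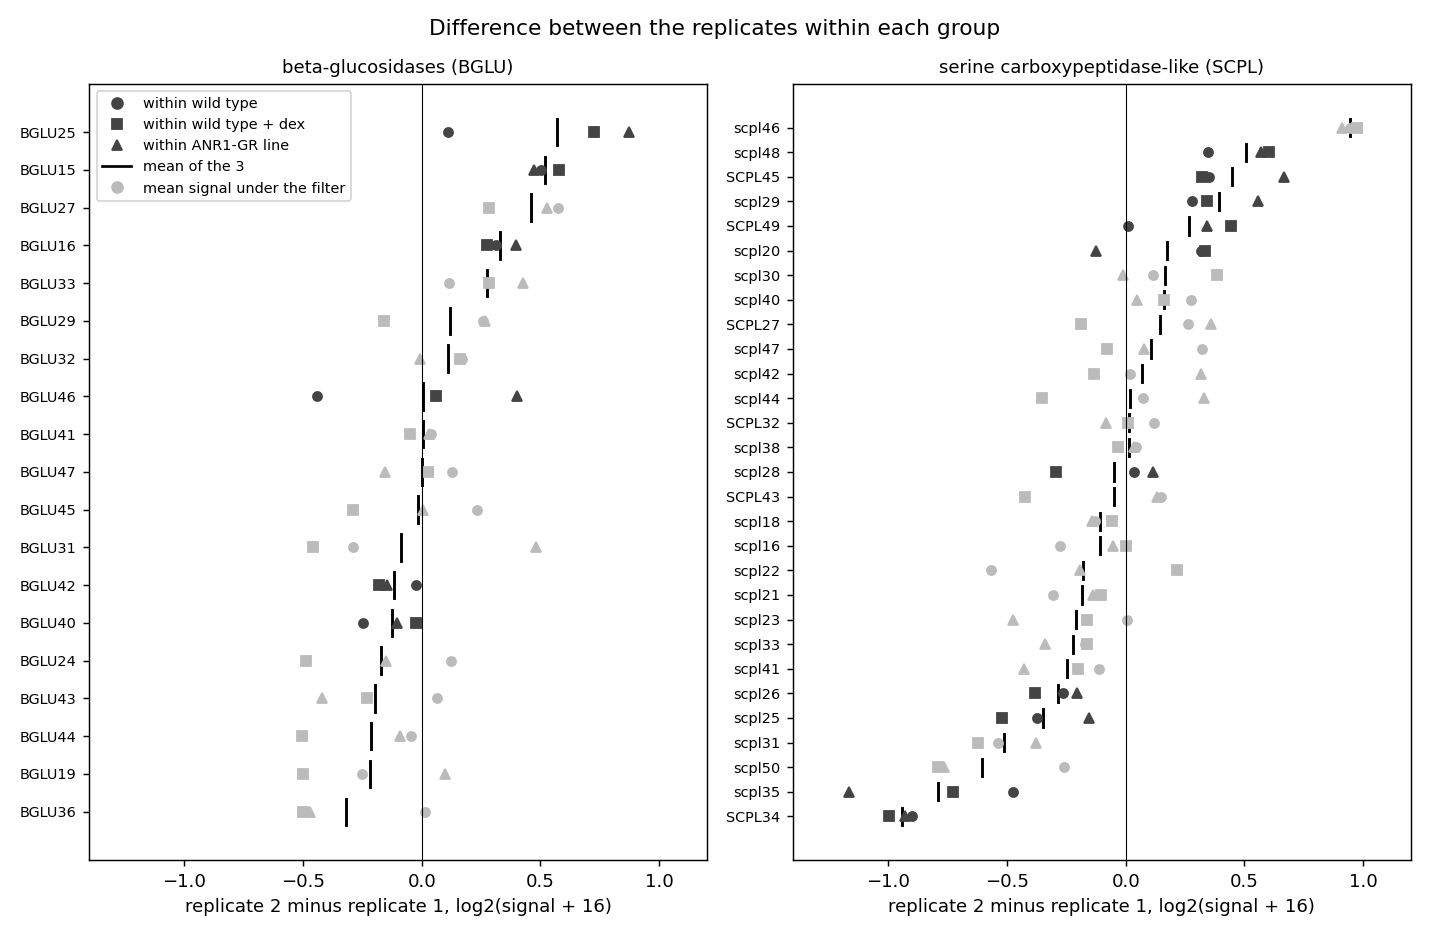
Difference between replicate 2 and replicate 1 on the log2(signal + 16) scale, for each of the 19 BGLU genes (left) and 29 SCPL genes (right), within the untreated wild type (circles), the treated wild type (squares) and the untreated line (triangles). The bar is the mean of the 3 groups and grey symbols mark members with a mean signal under 50; SCPL34 and scpl46 lie farthest from 0 and their 3 values nearly coincide.

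A root hair marker also moved with the replicate. EXPA7 had signals of 112.6, 127.6 and 126.6 in replicate 1, then 65, 38.2 and 27 in replicate 2 and 86.6 in the treated line, a difference of -1.27 ± 0.20 (limma adjusted p = 0.0094). Like scpl35, EXPA7 was lowest on the untreated line array and the treated wild type array of replicate 2. EXPA18 ran the other way, at 0.50 ± 0.15, and did not pass (limma adjusted p = 0.0617). The part of these markers in the members' differences was not tested.

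The ANR1-GR line was set against the wild type over both treatments, and none of the 16 tested members was called. Of all tested probe sets 0% were called by limma, and 0.54% had an unadjusted p under 0.05, which no member had. For all 16 members the limma adjusted p was 1.00. The largest difference was that of scpl25, at -0.31 ± 0.17 on the log2 scale. Its signals were 114.8, 85.0, 105.0 and 68.3 in the wild type and 78.0, 68.4 and 70.4 in the line, so the line arrays were low but overlapped the treated wild type of replicate 2, which was lowest of all. Between untreated arrays the scpl25 difference was -0.48 in replicate 1 and -0.26 in replicate 2. Over both treatments of replicate 2 it was -0.11. BGLU46, at 0.18 ± 0.19, and SCPL45, at 0.17 ± 0.20, were the highest. Without the untreated wild type array of replicate 2 the BGLU46 difference was 0.012. With the replicate number as a block no member was called either, against 0.00982% of all tested probe sets.

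The medians for the line were 0.057 over the 6 tested BGLU genes and -0.054 over the 10 tested SCPL genes, and close to 0 over all tested probe sets. A difference under 1.2-fold was found for all 6 BGLU genes and for 9 of the 10 SCPL genes, against 95.3% of all tested probe sets. Only SCPL32 had all 3 line arrays above all 4 wild type arrays, and no member had them below, against 1.69% of all probe sets above and 1.34% below, 3.03% together. SCPL32 was dim and was not tested, with signals of 1.4, 2.9, 2.0 and 2.1 in the wild type and 7.0, 5.7 and 7.8 in the line.

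Dexamethasone in the wild type, which lacks the fusion, gave no call among the 16 members, and 0% of all tested probe sets were called. At an unadjusted limma p under 0.05 there was no member and 0.187% of all tested probe sets. The largest difference was that of BGLU46, 0.54 ± 0.23 (limma adjusted p = 1.00). Its signals were 284.8 and 205.5 without dexamethasone and 352.8 and 368.5 with it. The treated arrays were above the untreated ones in both replicates, by 0.29 in replicate 1 and 0.80 in replicate 2. The untreated line gave 277.1 and 371.3, and the treated line 326.0, all within the range of the wild type or just above it. With the replicate number as a block BGLU46 alone had an unadjusted limma p under 0.05, against 1.13% of all tested probe sets.

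Family medians under dexamethasone in the wild type were close to 0. Over all members 15 of the 19 BGLU genes and 9 of the 29 SCPL genes were higher with dexamethasone, where 49.5% of all probe sets were, and the medians were 0.075 and -0.067. These counts use the mean of the 2 replicates, and several BGLU genes were higher in replicate 1 alone. The dim BGLU24 moved by 0.39 in replicate 1 and -0.22 in replicate 2, and the dim BGLU45 by 0.29 and -0.23. BGLU46 and BGLU40 were among those higher in both. Over the tested members the medians were 0.030 and -0.026, and their signs rested on single arrays. Both were negative without the untreated array of replicate 1 (-0.092 and -0.060) or the treated array of replicate 2 (-0.065 and -0.060). Both were positive without the untreated array of replicate 2 (0.098 and 0.044) or the treated array of replicate 1 (0.23 and 0.024). Most of these genes were too dim to test, and no family difference was tested. In scpl35 the difference was -0.38 ± 0.44, of which -0.25 fell in replicate 1 and -0.50 in replicate 2.

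Dexamethasone in the line is the treatment that the fusion was made for, and it rests on 1 treated array against 2 untreated ones, the lone array being assumed to vary like the others. None of the 16 members was called, and 0% of all tested probe sets were, while 0.53% had an unadjusted limma p under 0.05. In this fit, which does not pair the replicates, BGLU40 had the most negative difference, -0.30 ± 0.20, and scpl35 the most positive, 0.33 ± 0.54. For BGLU40 the treated line gave 44.1, below the untreated line at 60.7 and 55.4 but above the untreated wild type of replicate 2 at 40.7. For scpl35 the treated line, at 97.4, lay between the untreated line arrays of replicate 1 and replicate 2, at 119.3 and 44.4. Within replicate 2 alone scpl35 was 0.91 higher with dexamethasone. The untreated line array used there had the lowest scpl35 signal and the highest actin 3′ to 5′ ratio of all arrays. With the replicate number as a block its difference was 0.72 ± 0.24, and it alone had an unadjusted limma p under 0.05, against 5.92% of all tested probe sets.

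For SCPL34 the estimate depended on the replicate. It was -0.17 when the treated array was set against both untreated arrays and 0.29 within replicate 2. Over the tested members the median was 0.027 for BGLU and -0.0086 for SCPL, and with the replicate number as a block both turned sign, to -0.19 and 0.036. BGLU42 had a difference of 0.14, with 66.6 in the treated line and 54.0 to 63.4 on the other 6 arrays, the treated line being highest.

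The difference between the 2 responses, line minus wild type, asked whether dexamethasone changed the RNA of these genes differently in the line. With 1 transgenic line and a wild type labelled only "Control", a difference could not be credited to the fusion alone. None of the 16 members was called and 0% of all tested probe sets were, with 0.746% at an unadjusted limma p under 0.05. The widest estimates in this fit, which does not pair the replicates, were 0.71 ± 0.69 for scpl35, -0.52 ± 0.37 for BGLU46 and -0.48 ± 0.26 for BGLU40. Within replicate 2, where all 4 groups have an array, the values were 1.41, -0.98 and -0.54. The 3 genes thus kept their direction there, each farther from 0, on arrays that the main estimate also uses. This difference subtracts the untreated line and treated wild type arrays of replicate 2, which had the highest actin 3′ to 5′ ratios. Within replicate 2 alone, the response and this ratio cannot be told apart. BGLU46 was lowest on another array, the untreated wild type of replicate 2, and without it the unpaired estimate was -0.30. With the block the value of scpl35 was 1.099 ± 0.302, again the only member with an unadjusted limma p under 0.05, against 7.08% of all tested probe sets, and no member was called. Medians over the tested members were -0.055 for BGLU and 0.032 for SCPL, and with the block they were -0.27 and -0.021. This comparison and those of dexamethasone in the line and in the wild type share arrays, so their values are not independent.

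**Figure D4:**
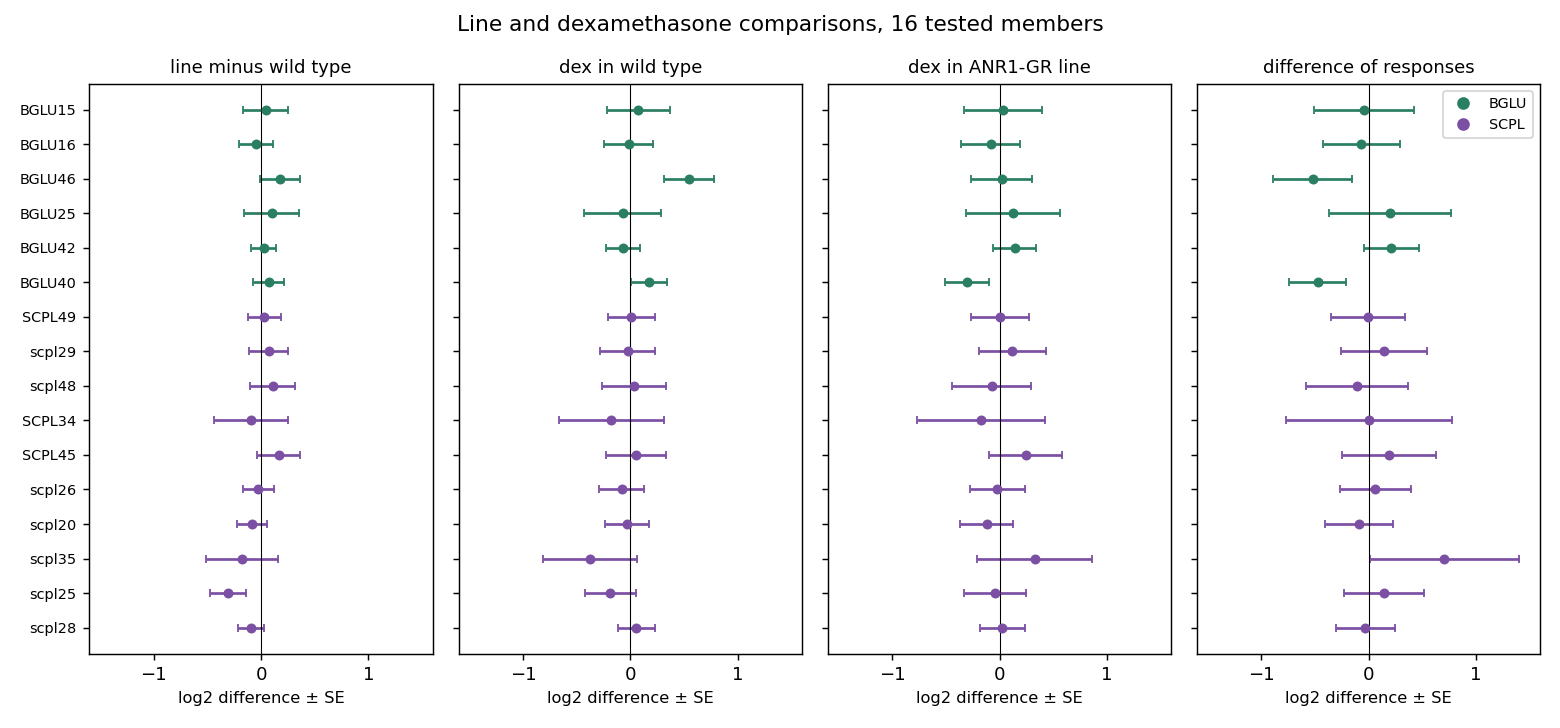
Log2 differences with their standard errors for the 16 tested members in 4 comparisons: the line minus the wild type, the dexamethasone response of each of these, and the line's response minus that of the wild type. BGLU members are green and SCPL members purple; most bars include 0, and none of the members passed the limma test.

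Enzymes and partners of the same pathways were read from 4 lists. PYK10, the main beta-glucosidase of the root ER body, a store of glucosidases, had signals of 2797, 2674.1 and 2672.6 in replicate 1, then 3111.6, 3148.4 and 3115.5 in replicate 2 and 2678.1 in the treated line. PYK10 did not pass the replicate test (0.20 on the log2 scale, limma adjusted p = 0.108), and the treated line matched replicate 1 more closely than replicate 2. The other beta-glucosidase found under another symbol, ATA27, had a mean of 2.80. Of the 14 genes of the ER body and PYK10 complex, 6 had a probe set and 5 were tested, and none of the 5 was called in any comparison. These were the regulator NAI1, the ER body protein NAI2 and the lectin-like JAL22, JAL33 and JAL34. None of 7 glucosinolate breakdown specifiers was paired with a probe set of its own.

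Of 11 genes listed as partners of sinapate ester synthesis or of carboxypeptidase-like proteins, 5 had a probe set and 4 were tested. REF1, the aldehyde dehydrogenase that makes sinapate and ferulate, was higher in replicate 2 by 0.45 ± 0.10 (limma adjusted p = 0.0274). F6′H1, which starts scopoletin synthesis from feruloyl-CoA, was higher by 0.46 ± 0.09 (limma adjusted p = 0.0196). UGT84A3 and UGT84A4, which make glucose esters, did not pass, at 0.076 and -0.12. No gene of the list was called for line or dexamethasone.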

How the data were processed

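The authors deposited a linear intensity for every probe set of 7 Affymetrix ATH1 arrays, scaled to a 2% trimmed mean of about 100.01. The summarisation software is not given in the sources used here. Groups and replicate numbers came from the labels. The 64 control probe sets were left out, which left 22746, and 10183 with a mean signal of at least 50 were tested. Tests used limma 3.58.1 in R 4.3.3 on log2(signal + 16), with a trend on mean signal and Benjamini-Hochberg adjustment over all tested probe sets at 0.05. The added 16 understates changes of dim genes.

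Line was fitted with dexamethasone as an additive term, and dexamethasone and the difference of responses as contrasts of 4 groups. Replicate was fitted with the groups as terms (2 residual degrees of freedom). Deviations of same-numbered arrays from their group means correlated at 0.62, 0.47 and 0.83, so the replicate numbers were taken to pair the arrays, from the labels' numbers and this check. The line and dexamethasone values given first come from fits without this pairing. The treated line has replicate 2 only, so its comparisons in those fits include part of the replicate difference. The fit with the number as a block changed no call of a member.

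Names came from the platform annotation (13513 probe sets with 1 gene, 503 with several) and RefSeq. Named genes were the called members, the brightest of each family, the widest differences of each comparison and members with a well known role. Some of the members with no overlap between replicates were also named. Members, lists and tests were chosen with earlier results of these data known. The code was tested on simulated data. Alternatives were other scalings, pseudocounts, signal limits, terms and left-out arrays.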

Additional observations from a re-analysis of the deposited data

Results flagged for a closer look

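In 8 of the 16 tested members, dexamethasone moved the wild type one way in both replicates and the line the other way in replicate 2, the only replicate with a treated line array. The same pattern held for 27.9% of all tested probe sets. In limma's test of the difference between the responses the 8 genes were not called, with or without the replicate number as a block. Without the block that test does not compare within replicates. For SCPL45 the difference was 0.19 without the block and -0.034 with it. Log2 differences are given for the line in replicate 2 and then for the wild type in replicates 1 and 2. They were 0.91, -0.25 and -0.50 for scpl35, the widest of the set. The 0.91 and -0.50 rest on the untreated line and treated wild type arrays of replicate 2, which had the highest actin 3′ to 5′ ratios. For SCPL34 they were 0.29, -0.13 and -0.23. For BGLU40 they were -0.25, 0.065 and 0.29, and for BGLU46 -0.18, 0.29 and 0.80. BGLU15 had -0.20, 0.038 and 0.11. The values of SCPL45 were -0.088, 0.072 and 0.040, and those of scpl26 were 0.083, -0.020 and -0.14. Those of scpl25 were 0.034, -0.11 and -0.26. BGLU15, SCPL45, scpl26 and scpl25 each included a step close to 0.

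Outside the members, a probe set that the annotation assigns to both BGLU22 and BGLU21 had a mean signal of 2191, above every member. Its signals ran from 1776.5 in the treated line to 2372.7 in the untreated wild type of replicate 1. Because it can read either gene, it was credited to neither and counted in no family. It was not called for line (log2 difference -0.13, limma adjusted p = 1.00) or replicate (0.018, limma adjusted p = 0.904).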

How the results depend on the processing

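With 7 arrays, 1 of them in the treated line, precision was limited by the number of arrays, and 13 BGLU and 19 SCPL genes were too dim to test. No member was called for line or dexamethasone under any alternative run. The fit with the replicate number as a block (pairing) kept these counts at 0; the lowest member adjusted p was 0.806 for dexamethasone in the line and 0.688 for the difference of responses. Under the block the sign turned for 6 of the 16 tested members for line, 7 for dexamethasone in the line, 3 for the difference and 0 for dexamethasone in the wild type. Among the genes named for a comparison these were BGLU25 (line -0.014, dexamethasone in the line -0.16, difference -0.087), SCPL34 (dexamethasone in the line 0.30) and SCPL45 (difference -0.034). With block and 3′/5′ ratio together, signs of named genes turned for BGLU25 (line -0.010), SCPL34 (dexamethasone in the line 0.27) and BGLU46 (difference 0.0062), and the SCPL medians moved to 0.11 for dexamethasone in the line and 0.13 for the difference. The ratio alone turned BGLU16 (dexamethasone in the line, 0.027) and scpl48 (difference, 0.13). On treated arrays alone the line difference was -0.14 for BGLU46, 0.24 for scpl35 and 0.019 for the SCPL median, which was 0.031 at a signal limit of 100. For the replicate, 8 members were called with median centring (17.9% of all probe sets in that fit), 2 without a signal limit (1.86%) and 2 with the ratio (11.5%), and the SCPL medians were 0.15 with centring, -0.048 without a limit and 0.27 at 100. The causes were not tested.

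Leaving out 1 array at a time, the members called for replicate ran from 1 to 8, and the share of all tested probe sets from 2.96% to 32.8%; leaving out either array of a group gives the same estimate, since the group then drops out. SCPL34 passed under all 16 alternatives (-1.03 to -0.75), BGLU15 under 13 of 16, scpl35 under 11 of 15, and SCPL45 and scpl48 under 10 of 16 each. Signs of named genes turned within these ranges. For line they were -0.10 to 0.34 for BGLU25, -0.46 to 0.18 for scpl35, -0.15 to 0.048 for BGLU16 and -0.044 to 0.24 for scpl48. For dexamethasone in the wild type they were -0.12 to 0.23 for SCPL45, -0.44 to 0.29 for BGLU25, -0.090 to 0.20 for scpl28, -0.16 to 0.023 for BGLU42 and -0.45 to 0.074 for scpl25. For dexamethasone in the line they were -0.31 to 0.56 for BGLU25, -0.088 to 0.58 for SCPL45, -0.64 to 0.29 for SCPL34, -0.28 to 0.12 for BGLU16 and -0.25 to 0.91 for scpl35. For the difference they were -0.41 to 0.19 for scpl48, -0.26 to 0.076 for scpl20, -0.24 to 0.63 for BGLU25 and -0.14 to 0.52 for SCPL45. Family medians turned too. For BGLU they ran from -0.029 to 0.12 for line, -0.092 to 0.23 for dexamethasone in the wild type, -0.23 to 0.17 in the line and -0.27 to 0.14 for the difference. For SCPL they ran from -0.068 to 0.013 for line, -0.060 to 0.044 in the wild type and -0.059 to 0.13 for the difference. No fit of dexamethasone in the line or of the difference was possible without the treated line array, and leaving out _s_at and _x_at probe sets removed 0 members.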

Other observations

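Among the members, 6 pairs are neighbours in the gene order of the RefSeq assembly TAIR10.1. In 5 of these pairs at least 1 gene was under the signal limit. BGLU46 had a mean signal of 312 and its neighbour BGLU45, an enzyme for the same lignin precursor glucosides, 9.80. BGLU16 had 413 and BGLU27 17.9, and the replicate differences of this pair were both positive, 0.33 and 0.46 on the log2 scale. Only scpl28 and scpl26 were both tested, at 78.6 and 137, with replicate differences of -0.048 and -0.28, neither of which passed.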
